A study of Mus musculus with 4 samples.

Results

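Abca1 and Abcg1 encode the ATP-binding cassette transporters that move cholesterol out of cells. They are 2 of 30284 genes for which transcript values of mouse small-intestinal organoids were summed, and they were chosen by name because both were much higher with the LXR agonist than with vehicle in these same libraries. That difference is therefore given as a description, without a test. Poly-A RNA was sequenced from organoids, which are epithelial cultures grown in Matrigel from crypts. GW3965 cultures received 2 µM GW3965, a compound made to activate the liver X receptors (LXR), for 6 h, and DMSO cultures received the vehicle for the same 6 h. Both groups came from the same 2 male C57BL/6J mice, labelled as 9 weeks old, with 1 culture of each kind per mouse (n = 2 per group). No altered allele is named for any of the cultures, and wild-type crypt epithelium without its surrounding tissue is the model.

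ABCA1 hands cholesterol and phospholipid to lipid-poor apolipoprotein A-I, the first step in making high-density lipoprotein (HDL), and ABCG1 adds cholesterol to HDL particles that already carry lipid. LXRα and LXRβ bind oxidised sterols and, paired with retinoid X receptors (RXR), switch on genes that carry sterols away, so that a cell with much sterol exports more of it. In the intestine, the transfer through ABCA1 feeds HDL made by the gut, while the related pair ABCG5 and ABCG8 returns sterols to the lumen.

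The total estimated count per library was 16572359 to 19486547. Mitochondrial transcripts took 14.0% of the gene counts in the GW3965 library of mouse 1, against 8.74% in that of mouse 2 and 7.60 to 9.43% in the DMSO libraries. The extraction text of the labels speaks of colon, but the 7 listed small-intestinal genes summed to 4614 to 6270 CPM (read counts normalised for library size), against 10.4 to 14.6 CPM for the 3 listed colon genes. The 7 epithelial genes, led by Krt8, summed to 21457 to 30581 CPM.

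Abca1 lies on the minus strand of chromosome 4 (53030787 to 53159895, GRCm38, which is mm10; GENCODE M21), and no other annotated gene overlaps it. The 300 bases around its RefSeq start (chr4:53159846-53160145, minus strand, GRCm38.p6, 250 bases before the start at 53159895 and 50 after) are shown because they hold a match to the repeat that LXR and RXR bind as a pair. This repeat consists of a pair of 6-base half-sites in the same direction with 4 bases between them, known as DR4, and was searched as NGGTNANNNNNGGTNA on both strands. Capitals mark the match, which runs on the other strand from position -67 to -52 (53159947 to 53159962).

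Abca1 promoter: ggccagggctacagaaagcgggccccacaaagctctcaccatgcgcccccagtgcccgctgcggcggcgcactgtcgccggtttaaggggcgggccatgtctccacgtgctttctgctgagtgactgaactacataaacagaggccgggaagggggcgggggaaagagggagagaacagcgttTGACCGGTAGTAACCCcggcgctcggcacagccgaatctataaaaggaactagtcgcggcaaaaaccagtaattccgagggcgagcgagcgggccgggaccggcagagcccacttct

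Of 32851 RefSeq promoter windows of this length, 236 (0.718%) held the searched pattern. The promoter table has entries for 64 of the 88 genes made up of Abca1, Abcg1 and the pathway lists described below, and 3 of those 64 genes held the pattern, namely Abca1, Srebf1 and Fasn. Abcg1 has no entry in that table, so its promoter was not searched. Read in the direction of the repeat, with the half-sites in capitals, the matches are:

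Abca1 site: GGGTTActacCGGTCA
Srebf1 site: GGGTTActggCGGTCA
Fasn site: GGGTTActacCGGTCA

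The half-sites were the same in all 3 genes. When the pattern was narrowed to them, as GGGTTANNNNCGGTCA, a choice made after the Abca1 site had been read, 3 of the 32851 windows held it, and they were those of these 3 genes. The Srebf1 site, in 1 of its 3 windows, lies at 60210638 to 60210653 and the Fasn site at 120824757 to 120824772, both on chromosome 11. Srebf1, the gene of a transcription factor of fatty acid synthesis, had a log2 fold change of 2.53 ± 0.24 (standard error) with GW3965. Fasn, the fatty acid synthase gene, had 0.12 ± 0.21, so the same half-sites stood before genes with quite different values at 6 h. The Fasn site equals the Abca1 site in the bases between the half-sites as well, and the Srebf1 site does not. A match is a description of sequence and not a site shown to be bound. The Abca1 window also held 1 E-box (CACGTG, in 7.15% of all windows) at -147 to -142, 2 GC boxes (GGGCGG, in 35.7% of windows) at -163 to -158 and -97 to -92, and 1 TATA box (TATAAA, in 13.6% of windows) at -29 to -24. None of these overlapped the DR4-like match. Its GC content was 62.7%, against a median of 52.7% over all windows.

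Abca1 had 702 and 1152 estimated counts in the GW3965 libraries of mouse 1 and mouse 2, against 9 and 33 in the DMSO libraries of the same mice. On the normalised scale this was 42.8 and 60.4 CPM with GW3965, against 0.462 and 1.75 CPM with DMSO. Both GW3965 libraries were far above both DMSO libraries, which is the difference by which the gene was chosen. The ratio within a mouse was 92.5 in mouse 1 and 34.5 in mouse 2. The GW3965 levels differed by 1.41 times between the mice and the DMSO levels by 3.79 times, so the larger ratio of mouse 1 went with its low vehicle value. The 95% exact Poisson interval, which covers counting error only, was 0.211 to 0.878 CPM for the DMSO library of mouse 1 and 1.20 to 2.46 CPM for that of mouse 2, and the intervals did not overlap. The fitted log2 fold change was 5.54 ± 0.43. Leaving out the DMSO library of mouse 1 gave 4.88, and leaving out that of mouse 2 gave 6.78. With mitochondrial genes left out of all libraries the value was 5.55.

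Abcg1 lies on the plus strand of chromosome 17 (31057675 to 31117988). It had 422 and 547 estimated counts in the GW3965 libraries of mouse 1 and mouse 2, against 27 and 24 in the DMSO libraries. This was 25.7 and 28.7 CPM with GW3965, against 1.39 and 1.27 CPM with DMSO. The mice lay close together in both groups. Abcg1, too, was chosen by the difference between the groups. The ratio within a mouse was 18.5 in mouse 1 and 22.5 in mouse 2, and the fitted log2 fold change was 4.35 ± 0.25 (4.36 with mitochondrial genes left out). The DMSO intervals of the mice, 0.914 to 2.02 and 0.815 to 1.89 CPM, overlapped almost fully. In bulk samples, more cells with a transcript and more of it per cell cannot be told apart.

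**Figure D1:**
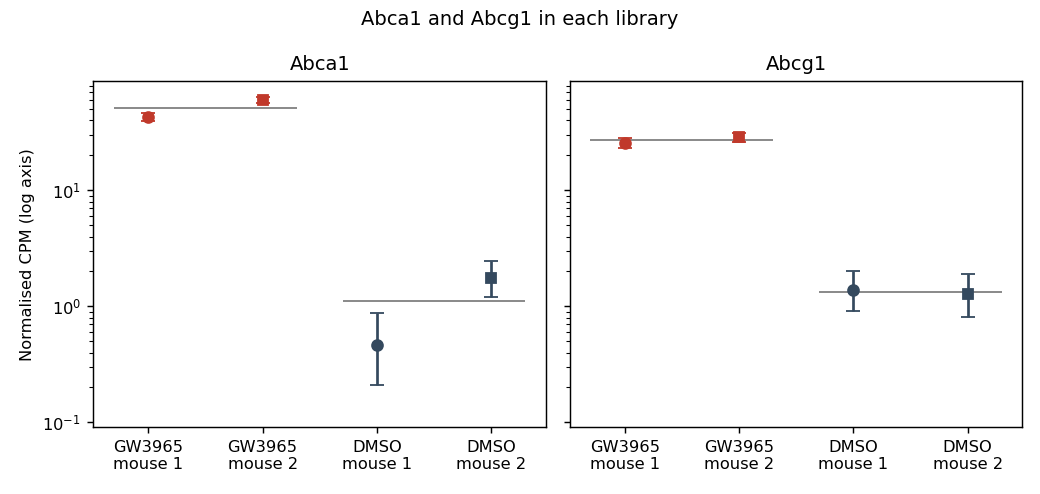
Normalised CPM (log axis) of Abca1 (left) and Abcg1 (right) in the GW3965 and DMSO libraries of mouse 1 (circles) and mouse 2 (squares); error bars are 95% exact Poisson intervals for counting error and grey lines are group means. All GW3965 libraries sit between 25.7 and 60.4 CPM and all DMSO libraries between 0.462 and 1.75 CPM, with the widest gap within a group between the DMSO libraries for Abca1.

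As a description of the values by which they were chosen, Abca1 and Abcg1 ranked 8 and 9 by log2 fold change over all 13602 tested genes. The genes ranked above them had 0 CPM in both DMSO libraries and 3.20 CPM or less with GW3965, so their fold changes had no DMSO reads to rest on. Among the 11559 tested genes with a mean log2 CPM of at least 1, which both reach through the GW3965 libraries, they ranked 1 and 2. By TPM, a level corrected for transcript length, Abca1 stood at the 55.2 and 58.5 percentile of the genes above 0 in the GW3965 libraries, against 6.36 and 21.4 in the DMSO libraries. Abcg1 stood at 60.5 and 61.6 with GW3965, against 26.0 and 25.1 with DMSO. Both genes thus stood near the middle of the expressed genes with the agonist and in the lower part with the vehicle.

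Macrophages carry much of both exporters in other tissues, so their markers were read beside these values. The 12 listed macrophage genes summed to 36.6 and 48.6 CPM in the GW3965 libraries, against 42.3 and 48.3 CPM in the DMSO libraries. Most of this was Mrc1, at 26.1 and 39.7 CPM with GW3965, against 34.1 and 40.5 CPM with DMSO. The other 11 genes, each at 4.69 CPM or less, summed to 10.5 and 8.87 CPM with GW3965, against 8.17 and 7.74 CPM with DMSO. Cd163, Fcgr1 and C1qa were higher with GW3965 in both mice and Mrc1 was lower in both. Cd163 and Fcgr1 were at 0.157 CPM or less in every library, so their differences rest on very few reads. C1qa had 0.914 and 1.36 CPM with GW3965, against 0.616 and 1.06 CPM with DMSO. Adgre1, the gene of the macrophage antigen F4/80, had 0.0609 and 0.105 CPM with GW3965, against 0.103 and 0 CPM with DMSO. The 6 listed lymphocyte genes summed to 177 and 64.7 CPM with GW3965, against 86.1 and 81.2 CPM with DMSO. The 3 endothelial genes summed to 26.0 and 17.3 CPM with GW3965, against 13.5 and 14.4 CPM with DMSO, nearly all of it Pecam1, and the 7 fibroblast and muscle genes to 4.14 and 3.46 CPM, against 2.47 and 3.92 CPM. No listed marker was at 0 in all 4 libraries. The part of RNA from any of these other cell types in the exporters' values was not tested.

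Each gene had 2 transcripts in the files. The full-length coding transcript of Abca1, with 50 exons and 10262 bases, held 98.1 and 99.0% of the Abca1 counts in the GW3965 libraries, against 100% and 96.6% in the DMSO libraries. The short Abca1 transcript, a non-coding one of 6 exons and 775 bases from the far end of the gene (53035488 to 53040926), had 13.3 and 11.6 estimated counts with GW3965, against 0 and 1.12 with DMSO. Its share of the Abca1 counts was 1.89% with GW3965 in mouse 1 (95% Wilson interval 1.09 to 3.14) and 1.01% in mouse 2 (0.597 to 1.81). With DMSO it was 0 of 9 counts in mouse 1, which allows a share of up to 33.3%, and 3.38% in mouse 2 (0.537 to 15.3). A change of share between the treatments was not detectable at this depth. Of the 745 stretches of 31 bases in the short transcript, 99 (13.3%) are not in the coding one, so most of its reads could come from either transcript.

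This small set of reads weighs more per length. The short transcript made up 24.6 and 14.7% of the Abca1 TPM in the GW3965 libraries, against 0 and 37.2% in the DMSO libraries. The coding Abca1 transcript alone had 3.81 and 6.43 TPM with GW3965, against 0.0497 and 0.172 TPM with DMSO. The whole gene had 5.05 and 7.54 TPM with GW3965, against 0.0497 and 0.274 TPM with DMSO.

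The coding transcript of Abcg1, with 15 exons, held 98.8 and 99.7% of the Abcg1 counts with GW3965, against 100% in both DMSO libraries. A transcript that retains an intron had 5.09 and 1.83 estimated counts with GW3965, a share of 1.21% (95% Wilson interval 0.507 to 2.74) in mouse 1 and 0.334% (0.10 to 1.32) in mouse 2, and was at 0 in both DMSO libraries. A count of 0 there allows a share of up to 11.1% in mouse 1 and 12.3% in mouse 2. The files give the coding Abcg1 transcript a length of 3610 bases, against 5832 bases in GENCODE M21, and hold 2 of the 5 Abcg1 transcripts annotated there, so the index behind the counts was built on another annotation. Abca1 shared none of its 10331 stretches of 31 bases with another gene, and Abcg1 shared 0.464% of its 6256, both by the M21 sequences.

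The balance of the exporters was read per length from their coding transcripts. The ratio of the coding Abca1 transcript to the coding Abcg1 transcript in TPM was 0.562 and 0.711 in the GW3965 libraries of mouse 1 and mouse 2, against 0.113 and 0.445 in the DMSO libraries. That of Abcg1 was thus the more abundant one in all 4 libraries. By counts, which are not corrected for length, Abca1 had 1.66 and 2.11 times the reads of Abcg1 with GW3965, against 0.333 and 1.38 times with DMSO. The lowest ratio on both scales was that of the DMSO library of mouse 1, with its 9 Abca1 counts.

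Mouse 2 was set against mouse 1 in a fit that also held treatment, a contrast that the choice of the genes did not use. Abca1 was higher in mouse 2, with a log2 difference (mouse 2 over mouse 1) of 0.81 ± 0.28, and did not pass the threshold (adjusted p = 0.279, unadjusted p = 0.00326, edgeR's quasi-likelihood test, Benjamini-Hochberg adjusted over 13602 genes). This value covers both treatments, though the Abca1 levels of the mice differed by 1.41 times with GW3965 and 3.79 times with DMSO. With 9 and 33 counts in the DMSO libraries, Abca1 passed the filter on low counts through its GW3965 libraries. Abcg1 had 0.07 ± 0.28 (adjusted p = 0.996, edgeR). Over all genes, 0.338% were called higher and 0.346% lower in mouse 2. This fit leaves 1 residual degree of freedom and an infinite prior, so its errors come from genes of similar level and not from the gene's own spread. Whether the response to GW3965 differed between the mice was not tested, since each mouse has 1 library per treatment.

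The authors' deposited table of log2 CPM lists both genes, and it places the DMSO libraries differently. For Abca1 the authors' deposited table has 4.90 and 5.65 in the GW3965 libraries of mouse 1 and mouse 2, against 1.15 and 0.17 in the DMSO libraries. The log2 of the normalised CPM above is 5.42 and 5.92 with GW3965, against -1.11 and 0.81 with DMSO. For Abcg1 the authors' deposited table has 4.13 and 4.93 with GW3965, against 1.64 and 0.45 with DMSO. In that table the DMSO library of mouse 1 is above that of mouse 2 for both genes, whereas by the counts it is lower for Abca1 and close to equal for Abcg1. In the authors' deposited table the mean difference between GW3965 and DMSO was 4.61 for Abca1 and 3.48 for Abcg1, the 2 largest of its 8524 genes. The difference between the mice in DMSO had the same sign in the authors' deposited table and in the counts for 66.2% of 8463 shared genes, and the difference between the mice with GW3965 for 84.0%. For the difference between treatments the share was 87.4% in mouse 1 and 90.2% in mouse 2. The scaling of that table was not given in the sources used here.

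**Figure D2:**
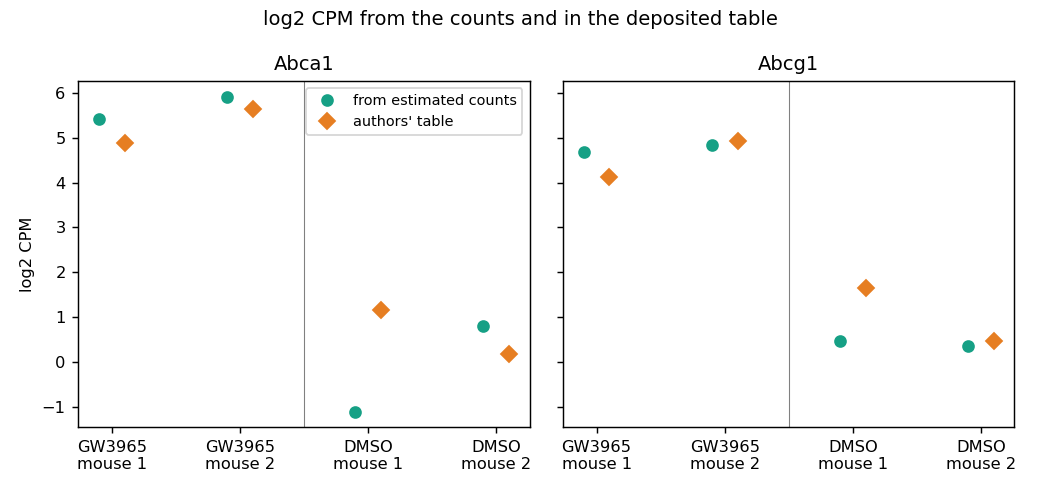
log2 CPM of Abca1 (left) and Abcg1 (right) in each GW3965 and DMSO library, from the estimated counts (circles) and in the authors' deposited table (diamonds), with no error bars. Both sources place the GW3965 libraries above the DMSO libraries, but for Abca1 in DMSO the counts place mouse 1 at -1.11 and mouse 2 at 0.81, while the table places them at 1.15 and 0.17.

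Within the ABCA and ABCG families, the level per length showed how far the exporters moved up. With GW3965, Abcg5 was highest at 126.6 ± 14.9 TPM (mean ± SD, n = 2 throughout), followed by Abcg8 at 51.3 ± 12.9, Abcg2, the gene of a drug exporter, at 37.4 ± 0.05, Abcg1 at 8.12 ± 1.46, Abca7 at 7.11 ± 0.23, Abca1 at 6.29 ± 1.76 and Abca3, a phospholipid transporter, at 4.92 ± 1.13. The libraries of Abcg1 and Abca7, of Abca7 and Abca1, and of Abca1 and Abca3 overlapped, so the order among these genes is within their spread. With DMSO, Abcg2 was highest at 38.5 ± 5.26 TPM and overlapped Abcg5 at 31.3 ± 6.98. Abcg1 was 8th of the 19 genes at 0.413 ± 0.037 TPM, where it overlapped Abca8b above it and lay clear of Abca12 below it. Abca1 was 11th at 0.162 ± 0.158 TPM and overlapped both of its neighbours, Abca5 and Abca4.

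Abca1 and Abcg1 together made up 4.94 and 6.74% of the summed TPM of these 19 genes in the GW3965 libraries, against 0.450 and 0.737% in the DMSO libraries. The pair for luminal export, Abcg5 and Abcg8, held 73.0 and 71.3% with GW3965, against 46.8 and 42.9% with DMSO. Even with the agonist, transcripts of the HDL exporters were therefore a small part of the family's total. Abca9, Abca13 and Abca17 were listed at 0 in all 4 libraries. Abcg4, the closest relative of Abcg1, had 0.250 and 0.200 TPM with GW3965, against 0.199 and 0.105 TPM with DMSO, and its counts were too low for the test.

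**Figure D3:**
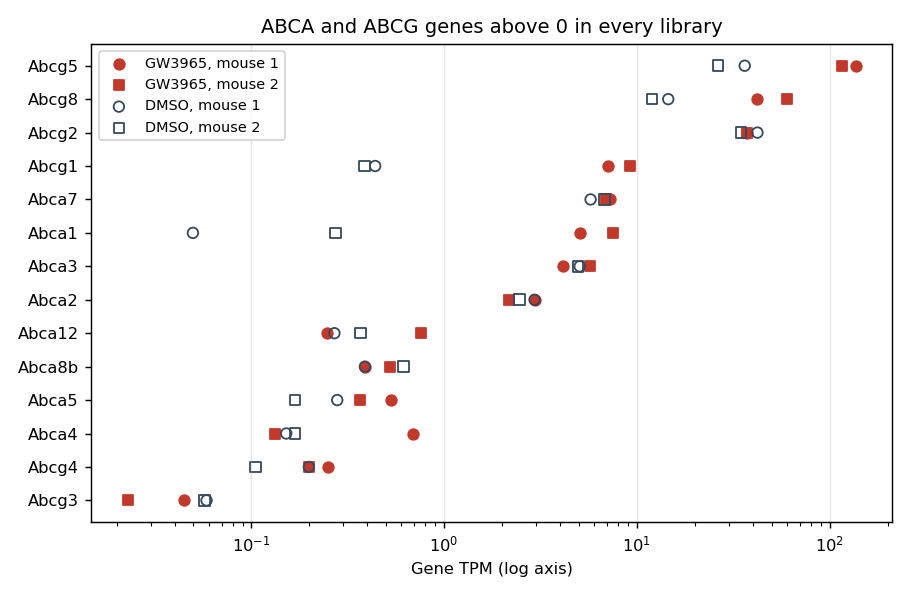
TPM (log axis) of the 14 ABCA and ABCG genes above 0 in every library, ordered by their mean with GW3965, in the GW3965 libraries (filled) and DMSO libraries (open) of mouse 1 (circles) and mouse 2 (squares). Abca1 and Abcg1 lie below 0.5 TPM with DMSO and between 5.05 and 9.16 TPM with GW3965, beside Abca7 and Abca3, whose libraries of both groups lie together.

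Other genes of the pathway were counted by role in the test of GW3965 against DMSO (edgeR's quasi-likelihood test, adjusted p under 0.05 over 13602 genes). In this test 8 genes (0.0588%) were higher and 0 lower, with 91 higher and 52 lower at an unadjusted p under 0.05 and a median log2 fold change of 0.00032. With the mouse as a block 31 genes were higher and 17 lower, and DESeq2 called 16 and 3. Leaving out the GW3965 library of mouse 1 gave 30 higher and 24 lower and that of mouse 2 gave 57 and 27, while leaving out the DMSO library of mouse 1 gave 28 and 10 and that of mouse 2 gave 33 and 21. Among the 8 higher genes of the main test are Abca1 and Abcg1, which were chosen by this same difference, so their calls are not evidence. Srebf1, Scd2, Abcg5 and Abcg8, which stand in the lists below, are also among the 8. The remaining ones, Ppara and Gm16378, are in none of the lists. This background is therefore not independent of the lists that are read against it. Lists are described by their counts and medians alone.

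Of the 6 listed enzymes that make or clear oxysterol ligands, 3 were tested and 0 passed (0 at an unadjusted p under 0.05 and 0 in DESeq2; median log2 fold change 0.15). Cyp27a1, which makes 27-hydroxycholesterol, had 9.78 ± 1.15 CPM with GW3965 and 8.40 ± 2.14 CPM with DMSO. Sult2b1, a sterol sulfotransferase, had 71.5 ± 14.2 CPM with GW3965 and 89.9 ± 9.03 CPM with DMSO. Of the 16 listed receptors and coregulators, 15 were tested and 0 passed (0 unadjusted, 0 in DESeq2), with a median of -0.0033 and log2 fold changes between -0.11 and 0.13. Nr1h2, the gene of LXRβ, had 56.2 ± 1.58 CPM with GW3965 and 52.5 ± 0.40 CPM with DMSO, and Gps2, a subunit of a corepressor complex, had 41.0 ± 3.77 CPM and 37.4 ± 0.66 CPM.

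All 14 listed genes that supply sterol to the exporters were tested and 0 passed (0 unadjusted, 0 in DESeq2; median 0.014). Soat1, which esterifies cholesterol for storage, had 47.6 ± 1.04 CPM with GW3965 and 36.4 ± 1.58 CPM with DMSO (log2 fold change 0.39 ± 0.18, adjusted p = 0.99986, edgeR). Arl4c, a small GTPase that moves cholesterol toward the plasma membrane, had 2.80 ± 0.10 CPM and 1.88 ± 0.49 CPM (0.57 ± 0.37). Lipa, the lysosomal lipase that frees cholesterol from its esters, had 47.6 ± 3.59 CPM and 56.4 ± 4.89 CPM (-0.25 ± 0.18).

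Of the 11 listed HDL acceptors and remodelling genes, 7 were tested and 0 passed (0 unadjusted, 0 in DESeq2; median 0.054). Apoa1, which encodes the apolipoprotein that takes lipid from ABCA1, had 636 and 965 CPM in the GW3965 libraries of mouse 1 and mouse 2, against 356 and 764 CPM in the DMSO libraries (log2 fold change 0.52 ± 0.37). It was higher with GW3965 in both mice, by 0.84 and 0.34 on the log2 scale, while the groups overlapped and mouse 2 was the higher one in each. Leaving out a DMSO library gave a log2 fold change of 0.07 (mouse 1) or 1.16 (mouse 2), and leaving out a GW3965 library gave 0.78 (mouse 1) or 0.18 (mouse 2). Apoe had 6.75 ± 0.32 CPM with GW3965 and 5.11 ± 1.78 CPM with DMSO, and Apoa2 had 0.950 ± 0.379 CPM and 1.57 ± 0.26 CPM. Of the 9 listed protein partners, 8 were tested and 0 passed (0 unadjusted, 0 in DESeq2; median -0.16). They include Sntb1, the gene of a syntrophin that binds ABCA1, with a log2 fold change of 0.85 ± 0.49, and the protease gene Capn1 with -0.27 ± 0.24.

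Among the 17 relatives in the ABCA and ABCG families, 9 were tested, 2 rose and 0 fell (median 0.26). These were Abcg8 (123 ± 11.0 CPM with GW3965 and 30.7 ± 2.22 CPM with DMSO, adjusted p = 0.00581, edgeR) and Abcg5 (237.7 ± 47.4 and 56.8 ± 7.35 CPM, adjusted p = 0.0146). In GENCODE M21 their spans overlap on opposite strands of chromosome 17 (84676302 to 84683011) through 1 of the 3 Abcg8 transcripts, and the sources used here do not say whether counting used strand. Without the DMSO library of mouse 2, 1 relative rose and Abcg5 had an adjusted p of 0.0710. Abca7, Abca3, Abca2 and Abcg2 also had higher TPM than the exporters in the DMSO libraries. They had log2 fold changes of 0.26 ± 0.20, -0.03 ± 0.19, 0.14 ± 0.29 and 0.19 ± 0.18 and did not pass.

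Of the 19 other LXR targets listed, 17 were tested, 4 rose and 0 fell, and the median log2 fold change was 0.57. All 17 had a positive fitted value, against 50.0% of all tested genes. Within the mice, 12 were positive in both and 0 negative in both, and the rest, Fasn among them, differed in sign. The 4 that rose were Srebf1, Scd2, Abcg5 and Abcg8. Srebf1 had 398 and 477 CPM in the GW3965 libraries, against 73.0 and 78.4 CPM in the DMSO libraries (adjusted p = 0.00525, edgeR). Scd2, a stearoyl-CoA desaturase gene, had 475 ± 187 CPM with GW3965 and 63.3 ± 14.8 CPM with DMSO (adjusted p = 0.0142, edgeR). With the mouse as a block 6 rose, the added genes being Mylip and Scd1. Mylip had an adjusted p of 8.66e-07 against 0.0766 without the block, and Scd1 had 2.72e-07 against 0.338 (edgeR). The block fit has an infinite prior, so its p-values do not use the gene's own spread. DESeq2, without the block, also called 6 higher, with an adjusted p of 0.00398 for Mylip and 0.0216 for Scd1. With no filter on low counts edgeR called 5, with an adjusted p of 0.0142 for Mylip and 0.0927 for Scd1. At an unadjusted p under 0.05 in the main test, 8 of the list were higher and 0 lower. Without the GW3965 library of mouse 1, which had the high mitochondrial share, 8 rose, and without any other single library 5 rose. The list was chosen with earlier results of these libraries known, so its direction is not independent evidence.

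**Figure D4:**
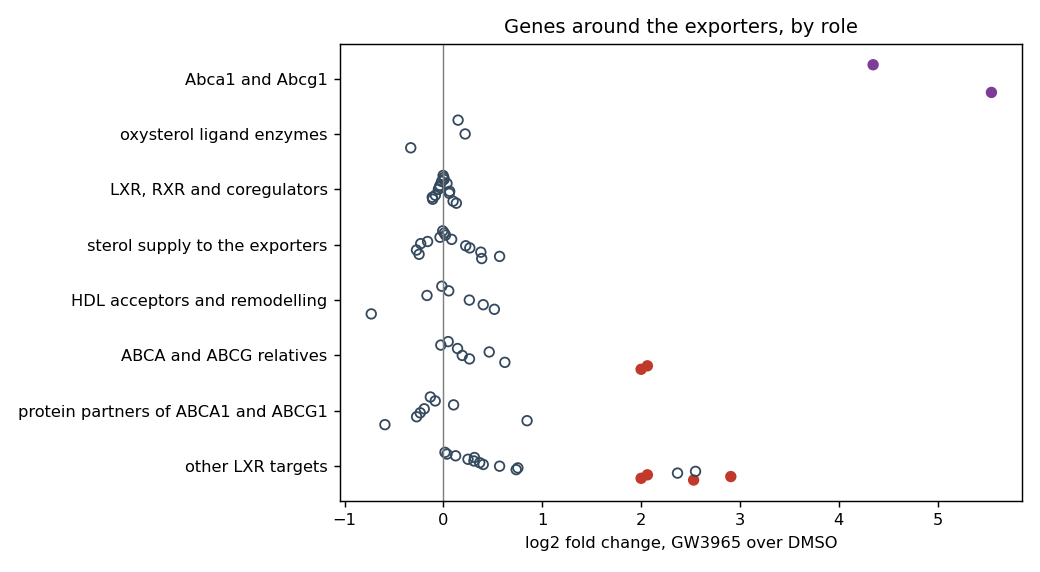
log2 fold change (GW3965 over DMSO) of Abca1 and Abcg1 (purple, top row, no test) and of each tested gene in the 7 lists, 1 point per gene, filled red where the adjusted p was under 0.05 and open otherwise; points are spread vertically for legibility. Abca1 at 5.54 and Abcg1 at 4.35 lie to the right of all listed genes, the nearest of which is Scd2 at 2.91.

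The genes with the most similar pattern were found by the distance between centred log2 CPM profiles over the 4 libraries. The search covered the 11559 tested genes with a mean log2 CPM of at least 1, a level that Abca1 and Abcg1 reach through the GW3965 libraries. Both profiles are mostly the difference between GW3965 and DMSO by which Abca1 and Abcg1 were chosen. Genes that are much higher with GW3965 therefore come out nearest, and the lists are a description only. For Abcg1 the nearest were Scd2 (distance 1.52), Srebf1 (1.73), Abca1 (1.90), Mylip (2.07), the gene of a ubiquitin ligase for the LDL receptor, and Scd1 (2.17). The log2 differences from DMSO in mouse 1 and mouse 2 were 2.70 and 3.04 for Scd2, but 2.80 and 1.77 for Mylip. For Abca1 the nearest was Abcg1 (1.90), then Scd2 (2.90), Gm7935 (2.94), Rpl9-ps4 (3.16) and Rsc1a1 (3.21). The last of these, Rsc1a1, had log2 differences of 4.78 in mouse 1 and 1.10 in mouse 2, Gm7935 had 5.79 and 0.94, and Rpl9-ps4 had 6.08 and 0.57. The list for Abca1 thus includes genes with a large difference in mouse 1 alone. These 3 were picked for their likeness to Abca1 in the same libraries, so no p-value of GW3965 against DMSO is given for them. All 3 were at 0 in the DMSO library of mouse 1, so their differences there depend on the prior count.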

How the data were processed

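Per the labels' protocols, sequencing gave single-end reads of 50 bases from stranded poly-A libraries. CASAVA 1.7, FastQC, kallisto and the build mm10 are named in the submitters' processing notes. The authors deposited, per the file headers, an estimated count (raw) and a TPM value for each transcript in each library. They also deposited whole-number rounded counts in 1 table and log2 CPM for 8524 symbols in another, whose scaling, like the annotation release and the use of strand, the sources used here do not give.

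Of 88198 transcripts, 86119 (97.6%) matched GENCODE M21, and their counts were summed over 30284 genes and rounded. Unmatched transcripts held 0.685 to 0.854% of a library and stayed out. The gene test used edgeR 4.0.16 under R 4.3.3 (filterByExpr, TMM, glmQLFit, glmQLFTest, Benjamini-Hochberg; 2 residual and 7.78 prior degrees of freedom), which gave 13602 tested genes; the test was checked on simulated counts. The labels give the mouse of each culture, so the mouse was also used as a block (infinite prior degrees of freedom); the deviations from the group means had a correlation of 0.072 within mice. Without the block, p-values rest on the spread between 2 cultures per group, weighted with that of other genes (2 residual and 7.78 prior degrees of freedom). With the block, as in the comparison of the mice, there is 1 residual degree of freedom and an infinite prior. Those p-values hold none of the gene's own spread. All pairs of libraries differed by more than sampling noise (chi-square over degrees of freedom 9.89 to 72.0). Pairs with the GW3965 library of mouse 1 had 47.1 to 72.0, the largest being with the other GW3965 library, and the other pairs had 9.89 to 20.5. Standard errors were derived from the F statistic. Depth limits low values: intervals and floors cover counting error only, since reads carry no molecular identifiers. A floor of 3 counts was used where a count was 0.

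Both genes, the lists and the markers were chosen with earlier results of these data known. Named list genes are those past the threshold, otherwise the 3 of smallest p (1 of them is not reported here), and in the ABC families also those with the highest TPM; Fasn was added after its promoter was read, and Abcg4, Abca8b, Abca12, Abca5 and Abca4 as neighbours in level. Alternatives were DESeq2 1.42.0, RLE scaling, no filter, the rounded table, the block, each library left out and log2(TPM + pseudocount). The authors' log2 table and the omission of mitochondrial genes were chosen after seeing the data.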

Additional observations from a re-analysis of the deposited data

How the results depend on the processing

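The counts of genes past the threshold (8 higher, 0 lower) depended on the fit. With the mouse as a replicate block they were 31 and 17, with DESeq2 16 and 3, and with no filter on low counts (20851 genes) 12 and 2. Leaving out 1 library gave 28 to 57 higher and 10 to 27 lower, 1 to 2 relatives of the ABC families and 5 to 8 other LXR targets higher. Those fits assume that the lone library varies like the others and are unbalanced in the mice. RLE scaling, the rounded table and omitting mitochondrial genes gave 7 to 8 higher and 0 lower. The block changed no call of a listed gene other than Mylip and Scd1, which DESeq2 also called without the block.

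The log2 fold change of Abca1 (5.54) ranged from 4.88 to 6.78 when 1 library was left out and that of Abcg1 (4.35) from 4.26 to 4.42. On the log2(TPM + 1) scale they were 2.64 and 2.68, and with a pseudocount of 0.1 the value of Abcg1 was 3.99, since a pseudocount near the DMSO level shrinks the difference. In the authors' deposited table they were 4.61 and 3.48; the cause was not tested. With the block they were 5.62 and 4.34. The remaining alternatives moved both by less than the spread between the mice (Abca1 4.73 to 5.55, Abcg1 4.34 to 4.36).

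The mean share of the coding transcript by TPM in place of counts was 80.4% with GW3965 and 81.4% with DMSO for Abca1, and 97.2% with GW3965 for Abcg1, because a short transcript weighs more per length; by counts these were 98.6, 98.3 and 99.2%. Without 1 library the share by counts was the other library's, 96.6 to 100% over both transcripts. The comparison of the mice stayed past no threshold under any alternative run (DESeq2, RLE, no filter, no mitochondrial genes), and leaving out a library there leaves 0 residual degrees of freedom, so it was not run. The 9 to 33 DMSO counts of Abca1 and the 24 to 27 of Abcg1 limit the precision of every ratio to DMSO.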
